A study of Mus musculus with 6 samples.

Results

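The nuclear pore complex is the gated channel through the nuclear envelope that carries RNA, ribosomal subunits and proteins between nucleus and cytoplasm. Its subunits, the nucleoporins, build rings on both faces of the envelope, an inner ring, a central channel lined with phenylalanine-glycine repeats, a basket on the nuclear side and filaments on the cytoplasmic side. Spliceosomal small nuclear ribonucleoproteins (snRNPs) recognise introns in pre-mRNA, and they are matured through the same pores: the snRNA is exported, the PRMT5 complex methylates Sm proteins, the SMN complex closes the Sm ring around the snRNA, and the particle is re-imported. The genes of both machines were taken from the count table by name. They were the rows whose symbol begins with Snrp, or with Nup or Gemin and a digit, together with Smn1, Prmt5, Wdr77, Clns1a, Ndc1, Tpr, Rae1, Aaas and Seh1l, with at least 10 raw counts on average per library. This gave 48 of the 24063 genes in the table: 26 nuclear pore genes, 10 genes of snRNP assembly and 12 Snrp genes that encode snRNP proteins. All 48 passed the filter on low counts and were among the 13572 genes tested. A further row, Nup210l, matched by name but had between 1 and 7 counts per library, and is only named.

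RNA had been sequenced from liver tumors of male C57BL/6 mice (the methods name the WT substrain as C57BL/6J and none for the Nr2e3-/- mice), 3 wild-type (WT, Nr2e3+/+) and 3 Nr2e3-/-, which are knockout for the orphan nuclear receptor Nr2e3. Every mouse of both groups had received diethylnitrosamine (DEN), a hepatocarcinogen, at 25 mg per kg intraperitoneally at 15 days of age, and the tumors were those of the 24-week time point. The sources do not say whether the groups were littermates, and no untreated liver or DEN-free group was part of the RNA-seq, so a level in a tumor could not be set against normal liver. The sequencing asked which genes differ between tumors of the 2 genotypes.

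Total counts were 25250090 to 28690279 in the WT libraries and 15376261 to 28336305 in the Nr2e3-/- libraries, with the lowest in Nr2e3-/- 1. Nr2e3 itself was counted 0 times in each library, which allows up to 0.105 to 0.195 CPM (counts in every 1000000) at 3 counts per library and counting error only, so its own counts could not check the genotypes. On the first principal component of all genes, which held 52.3% of the variance, Nr2e3-/- 1 scored -14.2 and lay beside the WT libraries (-31.5 to -23.3), while Nr2e3-/- 2 and 3 scored 53.0 and 43.4. For this reason results are also given without Nr2e3-/- 1. Levels below are normalized CPM (CPM after TMM scaling of the library sizes), and differences between the groups are log2 fold changes (Nr2e3-/- over WT) and their standard errors (SE) from edgeR's quasi-likelihood F test. Adjusted p-values are Benjamini-Hochberg values over all 13572 genes. An exact permutation test of 3 against 3 libraries cannot give a p-value below 0.1 (two-sided).

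Most of the 48 genes had a somewhat higher level in Nr2e3-/- tumors, but none passed the adjusted threshold of 0.05. The log2 fold change was above 0 for 40 of them, beside 50.8% of all genes tested, and its median was 0.22 beside 0.01 over all genes. Under the other normalizations, filters, tools and left-out libraries, between 37 and 41 genes were above 0. At an adjusted p-value under 0.05, 0 were higher and 0 lower in edgeR, where the background was 0.0663% of all genes higher and 0.0295% lower. At an unadjusted p-value under 0.05, 11 were higher and 1 was lower, beside 11.8% and 9.72% of all genes. DESeq2 called 2 higher (Wdr77 and Prmt5) and 1 lower (Nup62cl) after adjustment, beside 4.87% and 3.06% of the genes it adjusted. Limma-voom with sample quality weights called 10 higher and 0 lower, beside 9.48% and 7.91%. All 3 Nr2e3-/- libraries lay above all 3 WT libraries for 10 genes and below them for 2, where all genes gave 13.9% and 12.9%. The differences were thus small and mostly of the same sign.

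**Figure D1:**
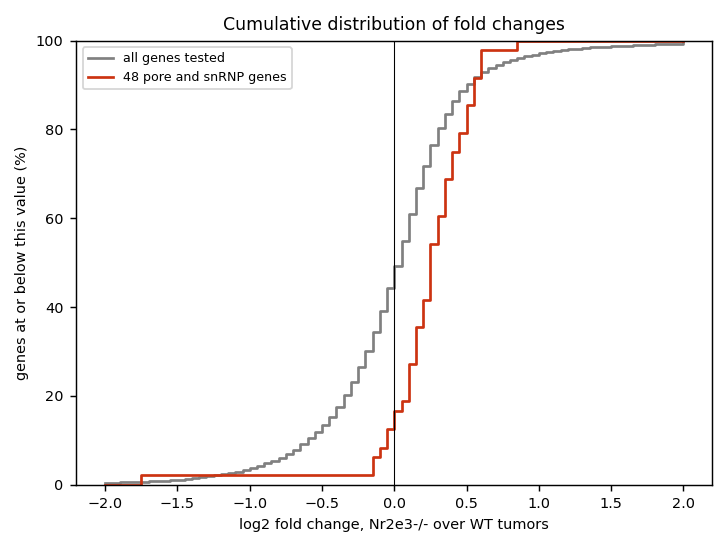
Cumulative share of genes (vertical axis, %) at or below each log2 fold change of Nr2e3-/- over WT tumors (horizontal axis), for all 13572 genes tested (grey) and the 48 pore and snRNP genes (red), read in steps of 0.05. The red line stays to the right of the grey one through the middle of the range, with medians of 0.22 and 0.01, and no pore or snRNP gene lies above 0.81.

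The 3 classes were not equally shifted. Over the 10 assembly genes the median was 0.47 on the log2 scale, with 5 higher at an unadjusted p-value under 0.05 and 5 with non-overlapping groups. The 12 Snrp genes had a median of 0.22, with 4 and 5. The 26 pore genes had a median of 0.17, with 2 higher and 1 lower, which is below the share of all genes in each direction (11.8% and 9.72%), and in none of them did all Nr2e3-/- libraries lie above all WT libraries. Whether these medians differ was not tested. With upper quartile scaling they were 0.38, 0.13 and 0.08, against a median of -0.08 over all genes.

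**Figure D2:**
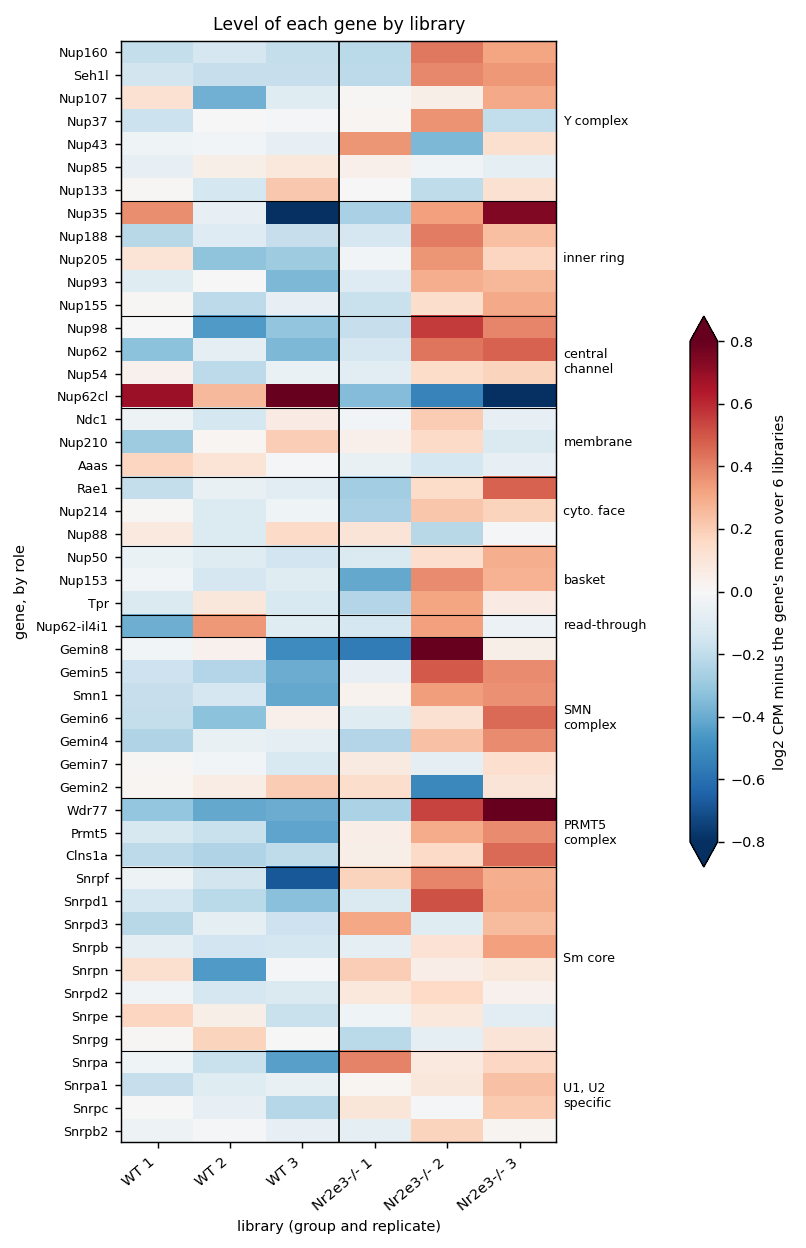
Level of the 48 genes (rows, grouped by role) in the 6 libraries (columns), as log2 CPM minus the gene's mean over the libraries; red is above and blue below that mean, and the colour scale ends at 0.8 in each direction. Most rows are blue in the WT libraries and red in Nr2e3-/- 2 and 3, the PRMT5 complex most evenly so, while Nr2e3-/- 1 is mixed and Nup62cl runs the other way.

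The PRMT5 complex was the role group with the highest median, 0.49, and all 3 of its members had non-overlapping groups and an unadjusted p-value under 0.05. Prmt5, the arginine methyltransferase that symmetrically dimethylates Sm proteins (chromosome 14, 54507187 to 54517525 on the minus strand of GRCm38), had 17.4, 16.8 and 14.2 CPM in WT and 19.7, 23.3 and 24.7 CPM in Nr2e3-/- tumors 1 to 3. Every Nr2e3-/- library was above every WT library, with Nr2e3-/- 1 nearest to WT. The means were 16.1 ± 1.70 (SD, n = 3) and 22.6 ± 2.55 (SD, n = 3), a log2 fold change of 0.49 (SE 0.14, adjusted p = 0.133 from edgeR).

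Wdr77, the WD-repeat partner that presents substrates to Prmt5 (chromosome 3, 105959369 to 105970037, plus strand), had 31.3, 29.2 and 29.4 CPM in WT and 32.5, 56.4 and 68.7 CPM in Nr2e3-/- tumors. The 3 WT values were close together, Nr2e3-/- 1 was only just above them, and the other two were far above. Its log2 fold change of 0.81 (SE 0.25, adjusted p = 0.148 from edgeR) was the highest among the 48 genes, and over the alternatives its adjusted p ranged from 0.00333 without Nr2e3-/- 1 to 0.406. Of the 50-base windows of its transcript, 33.9% also occur in genes that overlap it, the antisense gene Atp5f1, an ATP synthase subunit, and Gm42890. Atp5f1 had 121 to 130 CPM in WT and 122 to 149 CPM in Nr2e3-/- tumors. Atp5f1 differed by 0.15 on the log2 scale (SE 0.11), with 149, 122 and 143 CPM in Nr2e3-/- 1, 2 and 3. Whether its reads entered the Wdr77 counts was not tested.

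Clns1a encodes pICln, the chaperone that holds Sm proteins during methylation (chromosome 7, 97696634 to 97720796, plus strand). It had 22.0, 21.6 and 22.1 CPM in WT and 26.3, 28.4 and 35.0 CPM in Nr2e3-/- tumors. Here Nr2e3-/- 1 was clearly apart from the WT libraries as well, and the log2 fold change was 0.45 (SE 0.13, adjusted p = 0.139 from edgeR).

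**Figure D3:**
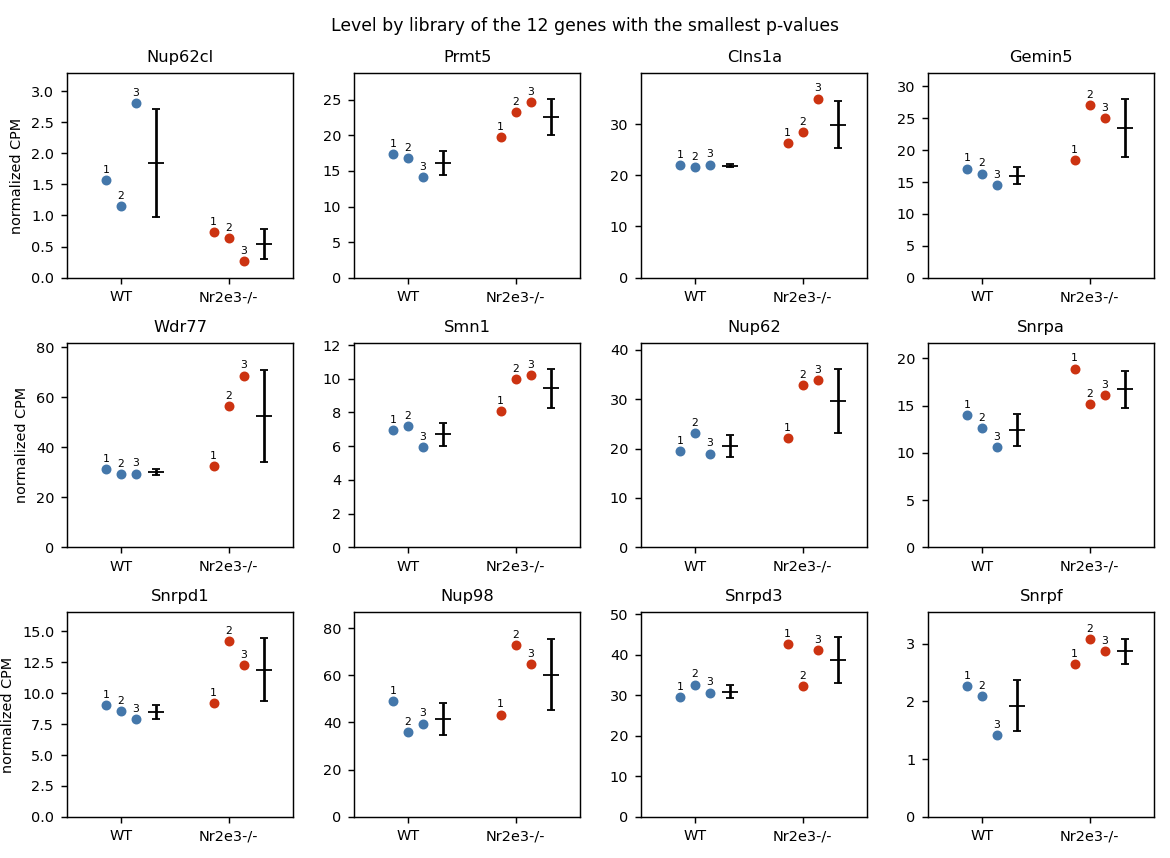
Normalized CPM (vertical axes, starting at 0) of the 12 genes with the smallest p-values in each library, with replicate numbers beside the points; the cross and bar at the right of each group give the mean ± 1 SD (n = 3). The groups overlap in Nup62, Nup98 and Snrpd3 and are apart in the other 9, and Nr2e3-/- 1 is the lowest of its group in 9 of the 11 genes with a positive fold change.

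As these 3 genes act in 1 complex, their promoters are shown for comparison. The sequences are RefSeq's (GRCm38.p6), from the 250 bases before the transcription start. Clns1a and Prmt5 are given up to the base before the first annotated exon of the gene, and exons of the antisense RNA Rsf1os2 overlap the Clns1a stretch. Wdr77 is given as 3 short stretches, since an annotated exon of Atp5f1 covers its window. The third of them also lies inside the first exon of a Wdr77 transcript that GENCODE starts at 105959369, ahead of the RefSeq start. Capitals mark the letters searched on both strands: GGGCGG (GC box), CCGGAA (ETS core), CACGTG (E-box), TGCGCA (NRF1 half-site) and TCGCGA, a palindrome added after the Wdr77 window had been read.
Wdr77, chr3:105959274-105959289, plus strand: acatcTCGCGAgaaga
Wdr77, chr3:105959341-105959356, plus strand: cactaTCGCGAgaaga
Wdr77, chr3:105959448-105959463, plus strand: aattcTCGCGAgaagt
Clns1a, chr7:97696407-97696633, plus strand: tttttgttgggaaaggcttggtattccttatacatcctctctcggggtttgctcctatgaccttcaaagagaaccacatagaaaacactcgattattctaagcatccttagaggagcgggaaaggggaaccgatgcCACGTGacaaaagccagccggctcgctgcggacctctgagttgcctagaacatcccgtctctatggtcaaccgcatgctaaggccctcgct
Prmt5, chr14:54517526-54517720, minus strand: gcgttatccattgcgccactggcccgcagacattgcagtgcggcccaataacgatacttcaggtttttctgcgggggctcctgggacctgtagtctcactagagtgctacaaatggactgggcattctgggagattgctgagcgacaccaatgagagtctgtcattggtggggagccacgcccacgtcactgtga

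Over the full window of 250 bases the 3 promoters shared none of these motifs. Wdr77 held TCGCGA 3 times, GGGCGG 2 times and TGCGCA 1 time, Clns1a held CACGTG and CCGGAA 1 time each, and Prmt5 held none. Windows with TCGCGA at least 3 times belonged to 3 of the 10177 tested genes found in the promoter table (0.0295%), which were Wdr77, Mdh2 and Slc25a11. The letters were taken from Wdr77 and the cutoff equals its own count. Neither this share nor the TCGCGA share below, which includes Wdr77, is thus independent of that gene. Across the 41 pore and snRNP genes in that table, GGGCGG was found for 61% (61.6% of tested genes), CCGGAA for 36.6% (24.3%), TGCGCA for 19.5% (12.7%), CACGTG for 12.2% (9.79%) and TCGCGA for 7.32% (4.37%). A match is a description of the letters only.

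The SMN complex, which loads the Sm ring onto the snRNA, had a median of 0.34 on the log2 scale over its 7 genes. Smn1, the gene named for survival of motor neurons, had 6.95, 7.20 and 5.93 CPM in WT and 8.07, 9.98 and 10.2 CPM in Nr2e3-/- tumors. Gemin5, which recognises the snRNA, had 17.1, 16.3 and 14.6 CPM in WT and 18.4, 27.0 and 24.98 CPM in Nr2e3-/- tumors. In both genes all Nr2e3-/- libraries lay above all WT libraries, and the log2 fold changes were 0.50 (SE 0.16, adjusted p = 0.161 from edgeR) for Smn1 and 0.55 (SE 0.17, adjusted p = 0.141) for Gemin5.

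The other SMN complex genes overlapped between the groups. Gemin8, a subunit that bridges Smn1 and the remaining Gemins, had the largest log2 fold change of the complex, 0.57, but with an SE of 0.47. It was counted 6 to 36 times per library, at 0.614, 0.642 and 0.416 CPM in WT and 0.397, 1.34 and 0.649 CPM in Nr2e3-/- tumors, so the value rested on Nr2e3-/- 2 and was -0.07 without it. Gemin2, which holds the Sm proteins before ring closure, had the lowest, -0.16 (SE 0.20). Its levels were 10.8, 11.1 and 12.3 CPM in WT and 11.8, 7.46 and 11.5 CPM in Nr2e3-/- tumors, where only Nr2e3-/- 2 was below the WT range. Gemin4, Gemin6 and Gemin7 had log2 fold changes of 0.28, 0.34 and 0.09. Gemin4 shares 94.9% of its windows with genes annotated over it, so its counts are uncertain. For Gemin8 19.4% and for Gemin6 11.2% of the windows also occur in genes elsewhere.

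The Sm core genes encode the ring itself, and 6 of 8 had a log2 fold change above 0, with a median of 0.23. Snrpd1 had 9.02, 8.55 and 7.90 CPM in WT and 9.20, 14.3 and 12.3 CPM in Nr2e3-/- tumors. Snrpf had 2.26, 2.10 and 1.42 CPM in WT and 2.65, 3.08 and 2.87 CPM in Nr2e3-/- tumors. The groups were apart in both genes, and the log2 fold changes were 0.49 (SE 0.18, adjusted p = 0.190 from edgeR) for Snrpd1 and 0.57 (SE 0.24, adjusted p = 0.231) for Snrpf.

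Snrpd3 followed another order of libraries. It had 29.4, 32.6 and 30.6 CPM in WT and 42.6, 32.1 and 41.1 CPM in Nr2e3-/- tumors, so that Nr2e3-/- 1 was the highest and Nr2e3-/- 2 lay inside the WT range (log2 fold change 0.32, SE 0.13, adjusted p = 0.224 from edgeR). Snrpd2, with a log2 fold change of 0.19 (SE 0.13), had non-overlapping groups despite the small difference. Snrpe and Snrpg, which encode further ring proteins, had -0.03 (SE 0.14) and -0.12 (SE 0.19). Snrpg had 3.03, 3.42 and 3.02 CPM in WT and 2.58, 2.86 and 3.24 CPM in Nr2e3-/- tumors, with overlapping groups. Part of the windows of Snrpf (21.3%), Snrpe (28.4%), Snrpg (18.6%), Snrpd1 (13.8%) and Snrpd2 (11.7%) also occur in pseudogenes or other genes elsewhere. For Snrpf, 73.2% also occur in antisense transcripts over it. Reads of these genes may thus have been split, lost or counted more than once.

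Snrpb and Snrpn are paralogs that encode the related ring proteins SmB and SmN, and Snrpn is the imprinted copy on chromosome 7. Their first 90 coding bases, from the GENCODE M21 transcripts, are shown because they carry the conserved start of the protein, and capitals mark the bases that differ.
Snrpb: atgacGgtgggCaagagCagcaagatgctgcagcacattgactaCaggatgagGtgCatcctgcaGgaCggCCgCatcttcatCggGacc
Snrpn: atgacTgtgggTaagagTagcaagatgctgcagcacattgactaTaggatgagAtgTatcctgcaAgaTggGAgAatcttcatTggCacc
Of the 90 bases 77 were identical and 13 differed, and the longest run shared by the full coding sequences (693 and 720 bases) was 32 bases, shorter than the 50-base window used here for shared reads.

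Snrpb had the highest level per kilobase of the annotated pore and snRNP genes, 26.2 ± 0.743 FPKM (SD, n = 3) in WT and 28.9 ± 3.71 FPKM (SD, n = 3) in Nr2e3-/- tumors, where FPKM is CPM by total counts, divided by the kilobases of annotated exon. Its 51.6, 48.8 and 49.2 CPM in WT and 51.4, 58.7 and 68.1 CPM in Nr2e3-/- tumors overlapped through Nr2e3-/- 1 (log2 fold change 0.25, SE 0.12, adjusted p = 0.279 from edgeR). Snrpn stood at 4.19 ± 0.850 FPKM (SD, n = 3) in WT. It had 10.1, 6.76 and 9.22 CPM in WT and 10.7, 9.65 and 9.84 CPM in Nr2e3-/- tumors, with overlapping groups and a log2 fold change of 0.21 (SE 0.18). These values belong equally to Snurf, the reading frame on the same transcript, whose counts were identical in all 6 libraries.

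The 4 genes of U1 and U2 specific proteins all had log2 fold changes above 0, with a median of 0.22. Snrpa, the U1-A protein, had 14.01, 12.6 and 10.6 CPM in WT and 18.9, 15.1 and 16.1 CPM in Nr2e3-/- tumors, with the groups apart and Nr2e3-/- 1 the highest (log2 fold change 0.43, SE 0.15, adjusted p = 0.179 from edgeR). Of its windows, 27.5% also occur in other genes, mostly pseudogenes. Snrpa1, the U2-A′ protein, was also apart, at 12.5 to 13.6 CPM in WT and 14.4 to 16.7 CPM in Nr2e3-/- tumors (log2 fold change 0.23, SE 0.12). Snrpc of U1 had 0.20 (SE 0.16), and 22.7% of its windows also occur in pseudogenes. Snrpb2 of U2 had 14.7, 14.9 and 14.4 CPM in WT and 14.4, 17.1 and 15.4 CPM in Nr2e3-/- tumors, overlapping, with the lowest log2 fold change of the group, 0.09 (SE 0.12).

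Among the pore genes both extremes, Nup98 and Nup62cl, fell in the role group listed here as central channel. Nup62, a phenylalanine-glycine nucleoporin of the channel (chromosome 7, 44816088 to 44830812, plus strand), had 19.4, 23.1 and 19.0 CPM in WT and 22.2, 32.8 and 33.9 CPM in Nr2e3-/- tumors. Nup98, whose gene also encodes the ring protein Nup96 (chromosome 7, 102119398 to 102210176, minus strand), had 49.2, 35.8 and 39.5 CPM in WT and 43.3, 72.7 and 64.7 CPM in Nr2e3-/- tumors. In both, Nr2e3-/- 2 and 3 were above every WT library and Nr2e3-/- 1 was within the WT range. The log2 fold changes were 0.53 (SE 0.18, adjusted p = 0.173 from edgeR) for Nup62 and 0.54 (SE 0.21, adjusted p = 0.206) for Nup98. Nup54, the channel partner of Nup62, had 0.16 (SE 0.13), and 20.3% of its windows also occur in a pseudogene, Gm15790. The table also lists a read-through row, Nup62-il4i1, with 10.4 to 17.4 CPM in WT, 12.4 to 17.2 CPM in Nr2e3-/- tumors and a log2 fold change of 0.08 (SE 0.22). Reads of exons common to this row and to Nup62 may have been counted for both or for neither.

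Nup62cl, an X-linked relative named for the C-terminal part of Nup62 (140006805 to 140062712, minus strand), was the only gene of the 48 that was lower at an unadjusted p-value under 0.05. It had 1.57, 1.15 and 2.81 CPM in WT and 0.728, 0.631 and 0.270 CPM in Nr2e3-/- tumors, from 34 to 81 counts and 5 to 17 counts. Every Nr2e3-/- library was below every WT library, and the WT values themselves differed by more than 2-fold. The log2 fold change was -1.76 (SE 0.48, adjusted p = 0.130 from edgeR), with adjusted p-values of 0.0277 to 0.374 over the alternatives.

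The scaffold rings had smaller differences. In the Y complex, which forms the outer rings, 5 of 7 log2 fold changes were above 0, from -0.06 to 0.38, and none had an unadjusted p-value under 0.05. Nup160 had 13.7, 14.2 and 13.7 CPM in WT and 13.4, 20.97 and 19.5 CPM in Nr2e3-/- tumors (log2 fold change 0.38, SE 0.18). Nup133 had 12.4, 11.2 and 14.4 CPM in WT and 12.3, 10.7 and 13.5 CPM in Nr2e3-/- tumors (log2 fold change -0.06, SE 0.15), so 2 subunits of the same complex differed in which libraries were high. Seh1l resembled Nup160, with 59.8 to 61.3 CPM in WT and 58.9, 88.7 and 86.4 CPM in Nr2e3-/- tumors (log2 fold change 0.37, SE 0.16, adjusted p = 0.243 from edgeR).

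All 5 inner ring genes had log2 fold changes above 0, with a median of 0.33 and overlapping groups in each. Nup155 had 32.6, 28.0 and 30.9 CPM in WT and 28.5, 35.7 and 39.9 CPM in Nr2e3-/- tumors (log2 fold change 0.19, SE 0.15). Nup35 had the largest value, 0.50 with an SE of 0.45, from 1.996, 1.45 and 0.659 CPM in WT and 1.26, 1.93 and 2.59 CPM in Nr2e3-/- tumors. The WT libraries spread 3-fold in Nup35, and 83.0% of its windows also occur in another gene, Gm4353, so it is uncertain. Nup188, Nup205 and Nup93 had 0.36 (SE 0.16), 0.33 (SE 0.16) and 0.31 (SE 0.17).

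At the membrane and on both faces of the pore the log2 fold changes lay between -0.18 and 0.26, with medians of 0.04 for the membrane genes, 0.11 for the cytoplasmic face and 0.21 for the nuclear basket. Aaas, the ALADIN protein that Ndc1 anchors to the envelope, had 8.71, 8.32 and 7.63 CPM in WT and 7.41, 6.98 and 7.35 CPM in Nr2e3-/- tumors. All Nr2e3-/- libraries were below all WT libraries, by a log2 fold change of -0.18 (SE 0.14). Ndc1 had 7.37, 6.86 and 7.94 CPM in WT and 7.48, 8.76 and 7.24 CPM in Nr2e3-/- tumors. Its log2 fold change of 0.09 (SE 0.15) was -0.0010 with upper quartile scaling. Nup210, the other membrane protein, had 0.04 (SE 0.16).

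On the cytoplasmic face, Rae1, an mRNA export factor, had 17.5, 19.2 and 18.9 CPM in WT and 16.5, 22.2 and 27.8 CPM in Nr2e3-/- tumors (log2 fold change 0.26, SE 0.19). Nup88 had 35.9, 31.5 and 37.7 CPM in WT and 36.5, 29.2 and 33.8 CPM in Nr2e3-/- tumors (log2 fold change -0.08, SE 0.13), while its partner Nup214 had 0.11 (SE 0.15). In the nuclear basket, Nup50 had 56.8, 55.0 and 53.1 CPM in WT and 54.4, 64.6 and 72.1 CPM in Nr2e3-/- tumors (log2 fold change 0.21, SE 0.12). Tpr, which forms the basket filaments, had 111, 128 and 110.0 CPM in WT and 102, 149 and 125 CPM in Nr2e3-/- tumors (log2 fold change 0.11, SE 0.16), and Nup153 had 0.21 (SE 0.20). The groups overlapped in all these genes of both faces.

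**Figure D4:**
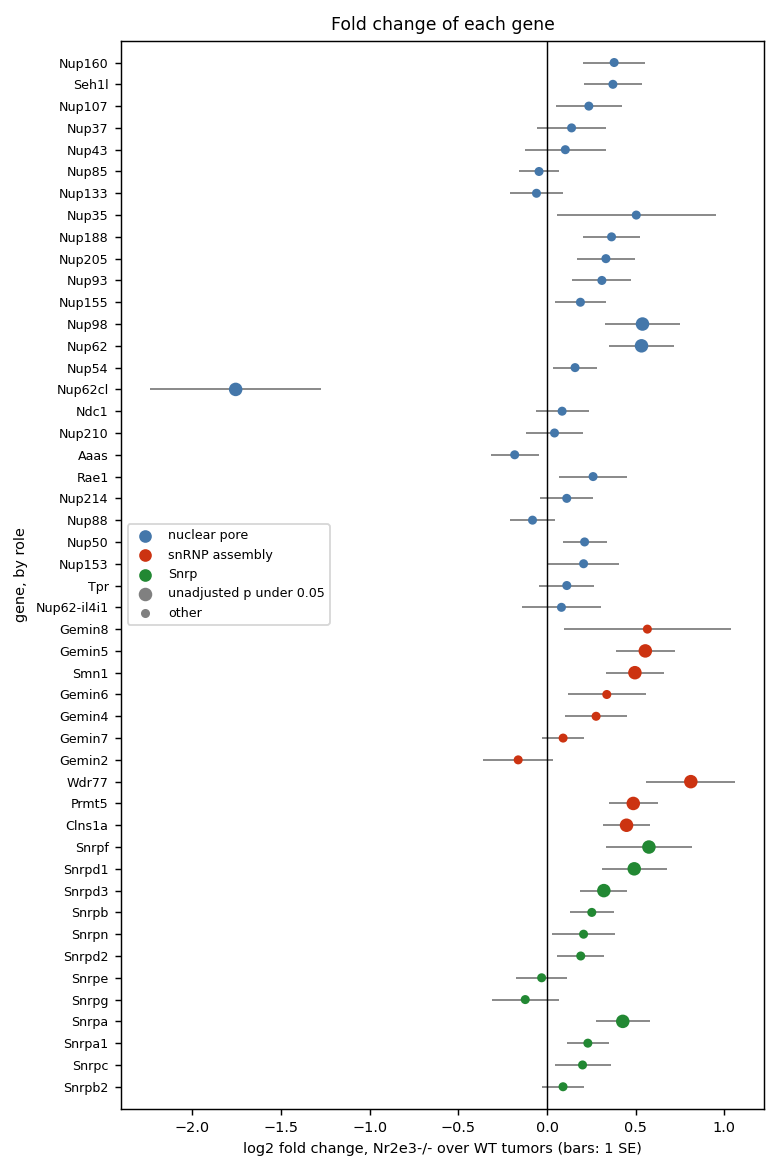
Log2 fold change of Nr2e3-/- over WT tumors (horizontal axis) for each of the 48 genes, ordered by role and coloured by class, with bars of 1 SE; large points have an unadjusted p-value under 0.05. The PRMT5 complex genes lie at 0.45 to 0.81, most pore genes between -0.2 and 0.6, and Nup62cl alone at -1.76.

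Per kilobase, the genes spanned a wide range of levels. After Snrpb came Seh1l at 15.2 ± 0.216 FPKM (SD, n = 3), then Nup50 at 11.7 ± 0.276 and Tpr at 11.5 ± 0.905 in WT, and these last 2 did not differ beyond their spread. The lowest were Gemin8 at 0.232 ± 0.0490 FPKM (SD, n = 3) and Nup35 at 0.421 ± 0.204, which overlapped within their errors. With the length of 1 transcript per gene in place of all annotated exons, Snrpb (44.6 FPKM) and Gemin8 (0.416 FPKM) were still the highest and the lowest, but the order between them changed: Nup50 (30.1 FPKM), Gemin7 (21.8) and Snrpe (21.3) then stood above Seh1l (17.7) and Tpr (16.2).

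The libraries of the Nr2e3-/- group did not carry the shift equally. The median over the 48 genes of log2 CPM minus the gene's own mean was -0.04, -0.11 and -0.12 in WT and -0.07, 0.16 and 0.22 in Nr2e3-/- 1, 2 and 3. Nr2e3-/- 1 was above all WT libraries in 2 of 26 pore genes (Nup37 and Nup43) but in 6 of 10 assembly genes and 8 of 12 Snrp genes, beside 32.7% of all genes. It was below all WT libraries in 8 pore, 1 assembly and 2 Snrp genes, for which the share of all genes is not given here. Nr2e3-/- 2 was above in 16 pore, 8 assembly and 7 Snrp genes (39.3% of all genes), and Nr2e3-/- 3 in 16, 9 and 9 (37.6%). These counts come from single libraries, and the difference between the classes was not tested.

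Nr2e3-/- 1 was singled out because its expression lay beside the WT libraries, so leaving it out widens differences between the groups by construction, and the fit without it is a description and no independent support. In that fit 14 of the 48 genes were higher and 1, Nup62cl, lower at an adjusted p-value under 0.05, beside 12.2% and 9.65% of the genes tested, where all 6 libraries had given 0.0663% and 0.0295%. The 14 were Wdr77, Prmt5, Clns1a, Gemin5, Smn1, Gemin4, Snrpd1, Snrpb, Nup62, Nup98, Nup153, Nup160, Nup188 and Seh1l, and they held all 10 genes called by limma-voom with sample quality weights, which gave Nr2e3-/- 1 the lowest weight (0.338). The log2 fold change of Wdr77 was then 1.07 (SE 0.11), that of Nup98 0.74 (SE 0.15), that of Nup62 0.71 (SE 0.12) and that of Gemin5 0.71 (SE 0.11). Snrpa and Snrpd3, in which Nr2e3-/- 1 was the highest library, had smaller values, 0.34 and 0.25, as the plot of fold changes with and without this library shows.

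**Figure D5:**
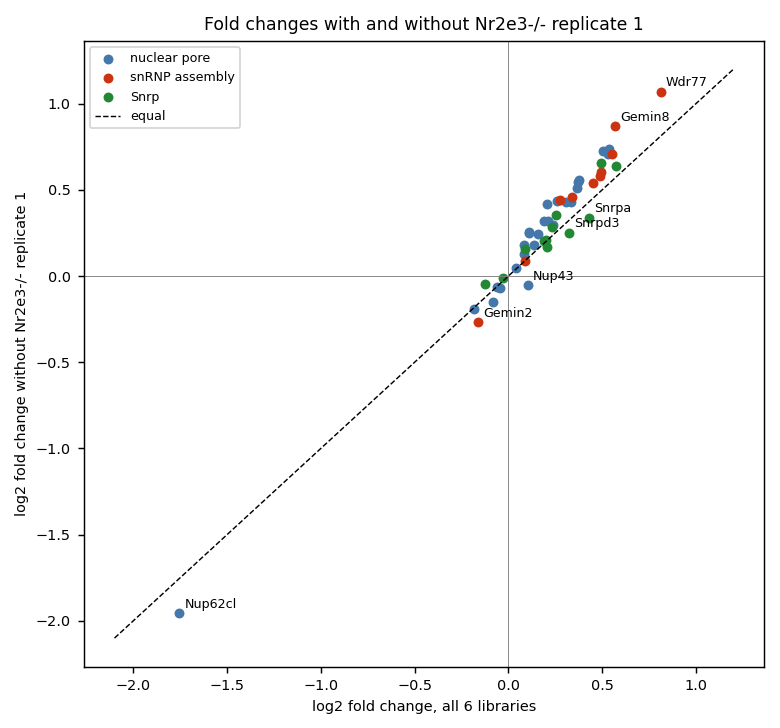
Log2 fold change of each of the 48 genes without Nr2e3-/- replicate 1 (vertical axis) against that with all 6 libraries (horizontal axis), coloured by class; the dashed line marks equal values. Most points with a positive value lie above the line, Wdr77 at 0.81 and 1.07, whereas Snrpa and Snrpd3 lie below it.

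The tumors were bulk tissue, in which fewer cells of a type and less RNA per cell cannot be told apart. The hepatocyte markers were at 130152 to 160284 summed CPM in WT and 117284 to 137620 in Nr2e3-/- tumors, a sum made up mostly of Alb (100362 to 130165 CPM in WT, 83985 to 103132 CPM in Nr2e3-/-). Of the 8 hepatocyte markers 5 had a log2 fold change above 0, with a median of 0.10, and 1, Hnf4a, had non-overlapping groups (log2 fold change 0.50, SE 0.17, adjusted p = 0.174 from edgeR). Summed biliary markers (5 genes) were 57.0 to 118 CPM in WT and 68.8, 428 and 185 CPM in Nr2e3-/- 1, 2 and 3, so the sum was above WT in Nr2e3-/- 2 and 3. Spp1 alone gave 410 and 171 CPM of these 2 sums, and 3 of the 5 genes had a log2 fold change above 0. Epcam was also above WT in both libraries, while Sox9 and Krt7 had log2 fold changes of -0.21 (SE 0.20) and -0.29 (SE 0.38). Summed immune markers were 167 to 209 and 157 to 352 CPM, endothelial markers 268 to 285 and 236 to 284 CPM, and stromal markers 253 to 276 CPM in WT against 290 CPM in Nr2e3-/- 1 and 172 and 165 CPM in Nr2e3-/- 2 and 3. Summed proliferation markers were 42.8 to 61.9 CPM in WT and 47.6, 83.6 and 52.2 CPM in Nr2e3-/- tumors, and 1 of the 9 tested, Rrm2, was higher at an unadjusted p-value under 0.05. No listed marker found in the table was at 0 in any library. The part of these markers and of the lower depth of Nr2e3-/- 1 in the results was not tested.

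Pore and spliceosome genes outside the naming rule were counted in the same fit, to be read beside 11.8% of all genes higher and 9.72% lower at an unadjusted p-value under 0.05, and 13.9% non-overlapping higher. Of 7 other pore genes, 3 were higher and 0 lower, with 0.33 as their median on the log2 scale and 0 past the adjusted threshold. Ranbp2, the large protein of the cytoplasmic filaments, had 177, 173 and 169 CPM in WT and 199, 263 and 275 CPM in Nr2e3-/- tumors (log2 fold change 0.51, SE 0.14, adjusted p = 0.132 from edgeR). The other pair were Sec13 and Ahctf1, both with 0.33 (SE 0.13). Nupl1 and Nupl2, the symbols under which the table lists Nup58 and Nup42, had 0.55 (SE 0.25) and 0.46 (SE 0.22). Of 11 other genes of snRNP assembly and import, 4 were higher and 1 lower, with a median of 0.27. They included Ncbp1, the large subunit of the cap-binding complex, with 0.58 (SE 0.13), and Snupn, the adaptor that re-imports snRNPs, with 0.51 (SE 0.17). Lsm10, a ring protein of the U7 snRNP that acts on histone mRNA, had -0.81 (SE 0.27). Of 37 other spliceosomal snRNP genes tested, 8 were higher and 0 lower, with a median of 0.21 and non-overlapping higher groups in 19, and the largest values were those of Nhp2l1 (0.71, SE 0.24), Sf3b3 (0.70, SE 0.21) and Sf3b4 (0.66, SE 0.22).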

How the data were processed

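Liver tumors of 3 WT and 3 Nr2e3-/- mice were grouped by sample title, and dose, age and time point came from the study's text. The authors made libraries with a TruSeq RNA kit, aligned single-end reads to mm10 (GRCm38) with TopHat, counted them per gene with featureCounts and deposited raw counts, which were used here. Whether counting used strand is not given in the sources used here. The submitters' processing notes also name Bowtie2 2.4.5 and SAMtools 1.14. The authors' normalized table and their comparison table, which holds fold changes and p-values, were not used.

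Counts were filtered with filterByExpr (minimum count 10, minimum total 15), scaled by TMM and tested with edgeR 4.0.16 (quasi-likelihood F test, two-sided) in R 4.3.3, with no covariate. DESeq2 1.42.0 and limma 3.58.1 (voom) were alternatives, beside RLE and upper quartile scaling, filters of at least 1 count in any library or 10 in every library, a block for the replicate number, and fits without single libraries. Log2 CPM used a prior count of 2. Tables used pandas 2.3.3 under Python 3.11.15, and plots matplotlib 3.10.9. The scripts were tested on simulated data.

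Of the 48 genes, 47 were found in GENCODE M21 and 41 in the RefSeq promoter table. Per-library values are given for the 12 smallest p-values and, per role, for the largest and smallest fold change, and for a few others chosen after their values were seen. The genes, role groups and lists were chosen with earlier results of these data known. Each library came from the tumor tissue of a mouse of its own, so the p-values measure the spread between these mice and libraries.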

Additional observations from a re-analysis of the deposited data

How the results depend on the processing

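The number of pore and snRNP genes higher at an unadjusted p-value under 0.05 was 11, and it was 6 with upper quartile scaling, 22 with limma-voom, 7 with the replicate block, and 4 to 22 when single libraries were left out (4 without WT 3, 5 without Nr2e3-/- 3, 6 without WT 2, 7 without Nr2e3-/- 2, 22 without Nr2e3-/- 1). All genes gave 18.8% higher at this threshold with limma-voom, 8.12% with upper quartile scaling and 8.97% with the replicate block. With single libraries left out, all genes gave 6.67% without WT 3, 6.75% without Nr2e3-/- 3 and 6.96% without WT 2. They gave 9.54% without Nr2e3-/- 2 and 19.9% without Nr2e3-/- 1. The number lower was 1, and 0 with at least 10 counts in every library, a filter that removes Nup62cl and Gemin8. After adjustment, 0 higher became 2 with DESeq2, 10 with limma-voom and 0 to 14 with single libraries left out, and 0 lower became 1 with DESeq2 and 0 to 1 with single libraries left out, the upper values being those without Nr2e3-/- 1. Non-overlapping higher genes went from 10 to between 11 and 28 with a library left out, 16 without WT 1 and 28 without Nr2e3-/- 1. There all genes gave 18.6% and 28%, within a range of 15.8% to 28% over the left-out libraries. Leaving out a library loosens this condition, so these counts say nothing of stability. The median log2 fold change of all 48 genes stayed between 0.13 and 0.31, and that of the Snrp genes was 0.13 with upper quartile scaling. That scaling also moved the share of higher genes among all genes with an unadjusted p-value under 0.05 from 54.8% to 38.2%.

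Of the fold changes of the 28 genes chosen by rule, 330 values under alternatives kept their direction and side of the adjusted threshold, 23 became significant and 9 changed sign. With single libraries left out, Gemin2 ran from -0.27 to 0.029, Gemin8 from -0.069 to 0.87, Ndc1 from -0.0040 to 0.14, Nup133 from -0.14 to 0.038, Nup88 from -0.15 to 0.0057 and Tpr from -0.029 to 0.25, and the value of opposite sign was that without Nr2e3-/- 2, or without WT 3 for the 0.038 of Nup133, which was also 0.028 without Nr2e3-/- 2. Nup133 was 0.020 with limma-voom, and Ndc1 was -0.0010 with upper quartile scaling. The cause was not tested.

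Same-numbered libraries gave no sign of pairing. Correlations of their deviations over 13572 genes were -0.08, 0.22 and 0.02, and pairs of different numbers gave -0.26 to 0.22. With the replicate block 0 genes passed the adjusted threshold, and 0 of the 48 had passed without it. The adjusted calls could therefore not bear on pairing. Depth limits Gemin8, Nup62cl, Nup35 and Snrpf most, with 5 to 83 counts per library.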

Other observations

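The factors that carry cargo through the pore were measured as a list of 31 genes: importins, exportins, the Ran cycle and mRNA export factors. In Nr2e3-/- tumors 14 were higher and 1 lower at an unadjusted p-value under 0.05, beside 11.8% and 9.72% of all genes tested, 16 had all Nr2e3-/- libraries above all WT libraries (13.9% of all genes), and the median log2 fold change was 0.26. None passed the adjusted threshold in edgeR. Rangap1, the activator of Ran's GTPase at the pore, had 68.4, 52.2 and 52.8 CPM in WT and 93.4, 148 and 148 CPM in Nr2e3-/- tumors, the largest difference of the list (log2 fold change 1.17, SE 0.21, adjusted p = 0.0930). Ran itself had 0.49 (SE 0.15), its exchange factor Rcc1 0.48 (SE 0.17) and Ranbp1 0.52 (SE 0.16), so 4 genes of the Ran cycle had groups that did not overlap. Among importins, Ipo7 had 0.56 (SE 0.12), Ipo5 0.50 (SE 0.17), Ipo4 0.49 (SE 0.13), Tnpo3 0.44 (SE 0.10) and Kpnb1 0.38 (SE 0.11), and among exportins Xpo5 had 0.57 (SE 0.18) and Xpo1 0.46 (SE 0.12). Nxt2, a cofactor of mRNA export, had -0.47 (SE 0.19), with 29.5 to 40.5 CPM in WT and 20.1 to 30.5 CPM in Nr2e3-/- tumors. Unlike most pore genes, Xpo1 was highest in Nr2e3-/- 1, at 71.3 CPM beside 42.6 to 47.3 CPM in WT. The list was written by hand and chosen with earlier results known.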
